A study of Homo sapiens with 2 samples.

Results

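The genes described here are 10 markers of mitochondrial protein stress: the chaperones HSPD1, HSPE1, HSPA9 and TRAP1, the proteases LONP1, CLPP and CLPX, the transcription factor ATF5, and the secreted cytokines GDF15 and FGF21. Their probes were found by the genes' Entrez identifiers, older aliases included, among 18852 named genes of the array. All 10 genes had at least 1 probe, 16 probes in all. HSPD1 and HSPE1 are on chromosome 2, HSPA9 on 5, CLPX on 15, TRAP1 on 16, and LONP1, CLPP, GDF15, FGF21 and ATF5 on 19. The cells were of SW48, a human line established from a colorectal cancer and grown in serum-containing medium. The agent, acetyl-11-keto-β-boswellic acid (AKBA), is a pentacyclic triterpene from the resin of Boswellia trees. The treated cells had received AKBA at 20 µM for 6 days, and the control is given as 0.1% dimethyl sulfoxide in the treatment protocol but as not treated in the source name. Each group was 1 RNA sample on 1 Illumina bead array, so there is no replicate, no error and no test behind any difference, and higher and lower describe this pair of arrays.

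Most proteins of the mitochondrial matrix are made in the cytosol, imported unfolded and folded by chaperones there, while proteases remove what stays misfolded. When this balance is disturbed, cells can raise both groups of genes, a program called the mitochondrial unfolded protein response. In mammalian cells mitochondrial stress also reaches the nucleus through the integrated stress response, in which the transcription factor ATF4 induces ATF5, GDF15 and FGF21 among others. HSPD1 and HSPE1 are also heat shock genes, so they can answer to stress outside the mitochondrion.

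The promoters of the genes on which the results turn are shown first, as RefSeq windows of 300 bases on GRCh38.p14, from 250 bases before the start to 50 after it, for the outermost start of each gene. HSPD1 and HSPE1 lie head to head. Their annotated starts are 105 bases apart and their windows share 204 bases, so the window at chr2:197500129-197500428 (plus strand) covers the starts of both. It is shown because the pair is transcribed from it in opposite directions. The window of LONP1 is chr19:5720403-5720702 (minus strand), that of GDF15 chr19:18385908-18386207 (plus strand), and that of FGF21 chr19:48755274-48755573 (plus strand). LONP1 and GDF15 had the largest differences, and FGF21 is the member that was not detected. Capitals mark every match, on either strand, to the 7 motifs given after the sequences.
HSPD1 and HSPE1: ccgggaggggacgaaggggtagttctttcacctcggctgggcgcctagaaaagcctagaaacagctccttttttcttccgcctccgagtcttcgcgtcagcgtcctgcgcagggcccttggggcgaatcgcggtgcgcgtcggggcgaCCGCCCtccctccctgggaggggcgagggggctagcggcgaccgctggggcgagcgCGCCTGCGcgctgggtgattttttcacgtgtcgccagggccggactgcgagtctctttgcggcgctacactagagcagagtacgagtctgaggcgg
LONP1: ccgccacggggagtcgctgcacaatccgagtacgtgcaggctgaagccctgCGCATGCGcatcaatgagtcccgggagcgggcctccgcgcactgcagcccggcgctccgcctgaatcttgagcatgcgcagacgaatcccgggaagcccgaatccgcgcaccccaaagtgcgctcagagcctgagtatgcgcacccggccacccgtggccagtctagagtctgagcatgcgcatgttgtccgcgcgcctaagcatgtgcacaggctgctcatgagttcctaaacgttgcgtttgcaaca
GDF15: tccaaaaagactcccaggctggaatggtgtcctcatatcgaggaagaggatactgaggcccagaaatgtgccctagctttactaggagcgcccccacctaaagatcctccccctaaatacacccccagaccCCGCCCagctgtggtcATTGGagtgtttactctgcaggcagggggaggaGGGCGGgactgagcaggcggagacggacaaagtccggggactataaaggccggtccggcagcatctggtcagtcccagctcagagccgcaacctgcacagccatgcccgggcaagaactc
FGF21: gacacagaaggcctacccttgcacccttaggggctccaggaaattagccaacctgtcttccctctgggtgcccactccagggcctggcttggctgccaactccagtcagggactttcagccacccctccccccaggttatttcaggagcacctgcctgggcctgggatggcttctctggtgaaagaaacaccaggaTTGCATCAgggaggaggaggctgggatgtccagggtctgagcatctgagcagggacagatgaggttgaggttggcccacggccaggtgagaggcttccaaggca

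The motifs were searched on both strands. Windows of 9 members were found, with CLPP named only. For each member only the window of the outermost start was searched, while the shares below are over all windows of all genes. ATF5 has 3 windows and HSPD1 and LONP1 have 2 each, so their other starts were not searched. The composite element of ATF4 and C/EBP factors, TGATGNAA, was found in 1 of the 9 windows, that of FGF21, against 3.62% of all 35116 promoter windows. For the heat shock element only the letters GAANNTTC were searched, and no other arrangement of it. They were in 0 of 9, against 6.77% of all windows. The cAMP response element TGACGTCA was in the window of TRAP1, against 1.85%, and the AP-1 element TGANTCA in that of ATF5, against 7.71%. The core of the NRF1 element, CGCNTGCG, bound by a factor that regulates many nuclear genes of mitochondria, was in 4 of 9 windows, against 10.0%, namely those of HSPD1, HSPE1, LONP1 and CLPX. The GC box GGGCGG was in 6 of 9 windows, against 45.0%, and CCAAT in 2 of 9, against 34.6%. The NRF1 and GC box matches of HSPD1 are the same bases as those of HSPE1, since the windows overlap. A match describes these letters only, and no match describes only this window.

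The arrays held 48803 probes, of which 25.4% in the control and 23.2% with AKBA were detected, meaning that their signal stood out from the negative control beads with a p under 0.01. The lowest detected signals were 138 and 141. Mean signals were 425 and 365, so a signal ratio below 1 is common and the log2 differences below are taken after background correction and quantile normalization. The median log2 difference of the 8639 genes detected on at least 1 array was then -0.02. It was -0.32 with scaling to equal medians and -0.11 in the authors' processed values, so a small positive difference can be below 0 with those values, and directions are therefore also given relative to this median. The 6 processings compared below are the main one with a normexp offset of 16, an offset of 50, median scaling, loess between the arrays, uncorrected background and the authors' processed values. Of the epithelial markers, EPCAM, CDH1, CDX2, KRT8, KRT18 and KRT19 were detected on both arrays, while CDX1, KRT20, VIL1 and GPA33 were not detected. The summed signal of the 10 epithelial markers was 15649 and 14693. Fibroblast, endothelial and muscle or liver markers were not detected on either array, 0 of 6, 0 of 3 and 0 of 4, with summed signals of 446 and 453, 256 and 249, and 266 and 279. Of 4 leukocyte markers on the array, CD68, which many cells express in lysosomes, was the 1 detected, with 472 and 610, and their summed signals were 734 and 885. The part of these markers in the results was not tested.

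Of the 10 genes, 9 were detected on both arrays, and their differences, by the brightest probe of each, lay between -0.30 and 0.72 on the log2 scale. The detection p of all 12 detected probes was 0 on both arrays. None of them differed by 2-fold, against 0.752% of the 8639 detected genes in either direction. GDF15 was higher with AKBA by 1.5-fold or more, a size that 2.91% of detected genes reached in that direction and 7.27% in either. LONP1 came next, followed by HSPA9 and CLPX. TRAP1, CLPP and ATF5 differed little, and the brightest probes of HSPD1 and HSPE1 were lower. The median over the 9 genes was 0.06, beside -0.02 over all detected genes, with 6 of the 9 above that median and 3 below. This split depends on the probe taken for HSPD1. Its brightest probe lay below the median of detected genes, but the mean of its detected probes, 0.06, lay above it.

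**Figure D1:**
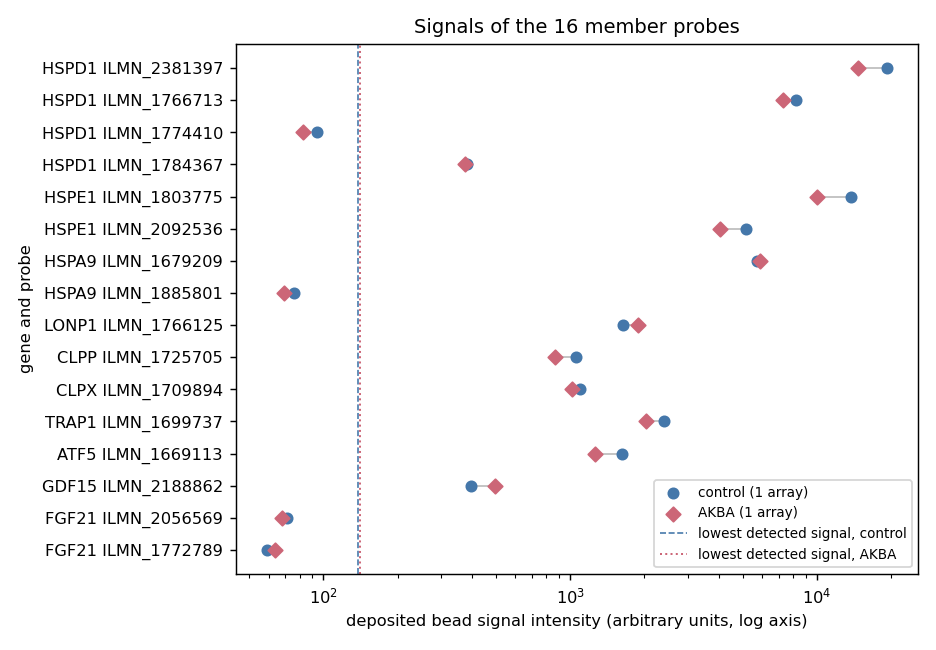
Deposited bead signal of each of the 16 probes of the 10 genes on the control array (circles) and the AKBA array (diamonds), on a log axis in arbitrary units, with the lowest detected signal of each array as a vertical line. The 12 detected probes lie to the right of both lines, the other 4 to the left, and of the detected probes those of GDF15, LONP1 and HSPA9 have the higher signal on the AKBA array.

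Among the chaperones, HSPD1 is the barrel-shaped chaperonin HSP60 of the matrix. Its brightest probe, ILMN_2381397, had a signal of 19300 in the control and 14599 with AKBA. The signal was lower with AKBA, and the log2 difference after normalization was -0.23. The probe ILMN_1766713 had 8252 and 7279, with a log2 difference of 0.11, and ILMN_1784367 had 383 and 373, with 0.31. As measured, all 3 detected probes were below 0 with median scaling, at -0.37, -0.15 and -0.001, and by the plain ratio of the deposited signals. Relative to the median of detected genes, the brightest lay below and the other two above under all 6 processings, at 0.09 to 0.18 for ILMN_1766713 and 0.28 to 0.34 for ILMN_1784367. The 3 log2 differences spanned 0.54 under the main processing, where the median span between probes of one gene was 0.21 over 1677 genes. Their mean was 0.06. The fourth probe, ILMN_1774410, had 94.3 and 82.9 and was not detected, with detection p of 0.0672 and 0.126. RefSeq lists 22 named pseudogenes of HSPD1, 28 of HSPE1 and 2 of HSPA9, and whether any of these probes also binds their transcripts was not tested.

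HSPE1, or HSP10, is the lid that closes the HSPD1 barrel. Its probe ILMN_1803775 had a signal of 13761 in the control and 9979 with AKBA, and ILMN_2092536 had 5180 and 4041. Both signals were lower with AKBA, with log2 differences of -0.30 and -0.08. Relative to the median of detected genes, the brighter probe stayed below 0 under all 6 processings, from -0.28 to -0.10. The dimmer one lay between -0.06 and 0.003, and above 0 in 1 of the 6, the authors' processed values. The first probe of HSPD1 likewise lay below the median of detected genes under all 6, from -0.21 to -0.04. Among genes within 0.5 of the same normalized log2 signal, 11.96% of 92 lay lower than HSPD1 and 8.85% of 113 lower than HSPE1 by their brightest probes, so both were inside the range from the 5th to the 95th percentile of such genes. The highest signal on each array was 33319 and 32153.

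HSPA9, the mitochondrial HSP70 called mortalin, pulls proteins through the inner membrane and begins their folding. Its probe ILMN_1679209 had a signal of 5732 in the control and 5854 with AKBA. The signal was slightly higher although the AKBA array was dimmer as a whole, and the normalized level was 1.25-fold higher. Measured from the median of detected genes, the difference was 0.32 to 0.40 under the 6 processings. Of 317 genes of like brightness, 89.9% lay lower. The probe ILMN_1885801 had 76.0 and 69.3 and was not detected. TRAP1, the mitochondrial member of the HSP90 family, had 2408 and 2037 with a log2 difference of 0.06. It was above the median of detected genes by 0.08 to 0.12, but below 0, at -0.21, with median scaling.

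Among the proteases, LONP1 is the ATP-dependent protease that degrades misfolded and oxidized proteins of the matrix. Its signal was 1636 in the control and 1875 with AKBA. The normalized level was 1.45-fold higher with AKBA, a log2 difference of 0.54. This was higher than 96.3% of detected genes and than 98.0% of the 1033 genes of like brightness, whose 95th percentile was 0.36. Relative to the median of detected genes the difference was 0.54 to 0.57 under the 6 processings, and as measured it was above 0 in each, from 0.24 with median scaling. LONP1 had 1 probe, so no other probe checks it.

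CLPX and CLPP form the other soluble protease of the matrix, in which the CLPX ring unfolds proteins and the CLPP chamber cuts them. CLPX had a signal of 1101 in the control and 1020 with AKBA, and its normalized level was 1.17-fold higher, lying above 83.4% of the 1454 genes of like brightness. CLPP had 1056 and 870 with a log2 difference of 0.04. The difference of CLPX was above the median of detected genes by 0.23 to 0.26 and that of CLPP by 0.05 to 0.08 under the 6 processings. As measured, both were below 0 with median scaling, at -0.08 and -0.26, and CLPP was also below 0, at -0.04, in the authors' processed values. LONP1 thus had a larger difference than either subunit of the other protease under every processing.

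**Figure D2:**
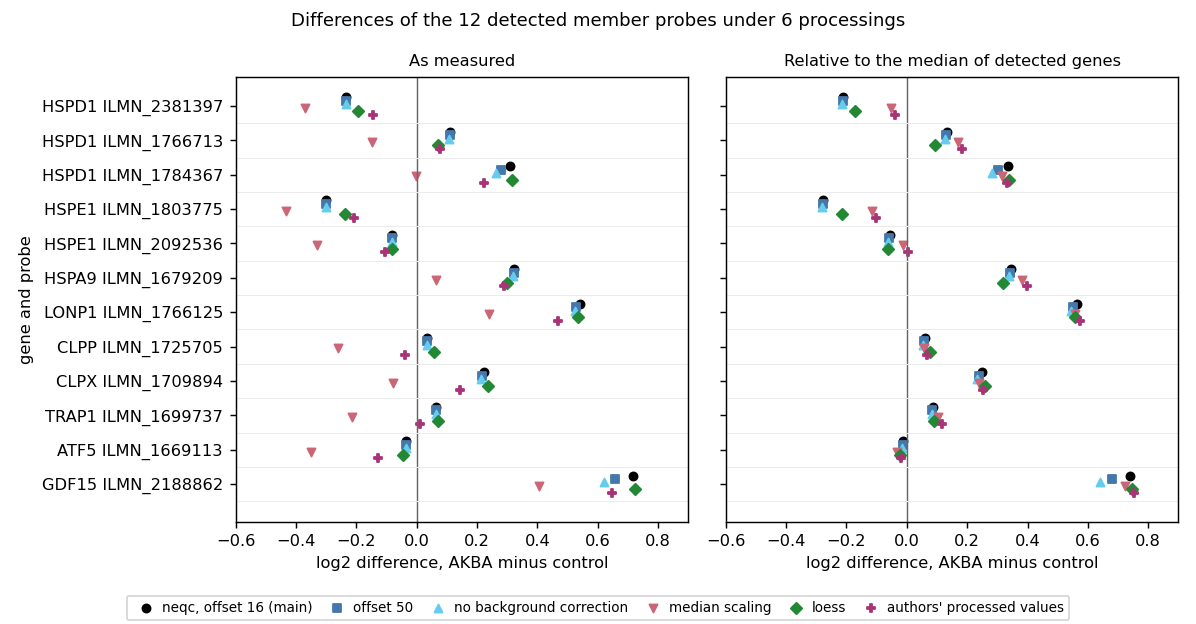
Log2 difference between the AKBA and the control array for each of the 12 detected probes, as measured (left) and relative to the median of detected genes (right), under 6 processings shown by symbol. GDF15, LONP1 and HSPA9 lie above 0 under all 6 in both panels. Median scaling shifts all probes to the left in the left panel, whereas in the right panel it moves none of the 12 across 0. The right panel subtracts the median of detected genes of the same processing, which largely takes out such a shift by construction.

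ATF5 is a basic leucine zipper factor held to be the mammalian counterpart of ATFS-1, which drives the mitochondrial unfolded protein response in the worm Caenorhabditis elegans. Its output is set largely by translation and by where the protein goes, neither of which an array measures. Its signal was 1625 in the control and 1258 with AKBA. The lower signal corresponded to a log2 difference of -0.04 after normalization, with 48.0% of detected genes below it. Relative to the median of detected genes it lay between -0.03 and -0.01 under the 6 processings, so ATF5 was near the middle of the detected genes in each.

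GDF15 is a distant member of the TGF-beta family that stressed cells secrete and that acts on hindbrain neurons through the receptor GFRAL. Its signal was 397 in the control and 494 with AKBA. It had the largest difference of the 10 genes, 1.64-fold higher with AKBA or 0.72 on the log2 scale. This was rank 134 from the top of the 8639 detected genes, above 98.4% of them and above 98.8% of the 1680 genes of like brightness, whose 95th percentile was 0.46. Relative to the median of detected genes it was 0.64 to 0.75 under the 6 processings. As measured it fell short of 1.5-fold with median scaling, at 0.40, and the plain ratio of the deposited signals was 1.24. GDF15 is also a target of p53 and of other stress pathways, and it had 1 probe.

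FGF21 is a fasting hormone made mainly by the liver, which muscle also releases when its mitochondria are impaired. Its probe ILMN_2056569 had a signal of 71.1 in the control and 68.0 with AKBA, with detection p of 0.481 and 0.561. The probe ILMN_1772789 had 58.9 and 63.4, with detection p of 0.958 and 0.759. Both probes lay within the signals of the negative control beads on both arrays, so FGF21 was not detectable here and no fold is given.

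**Figure D3:**
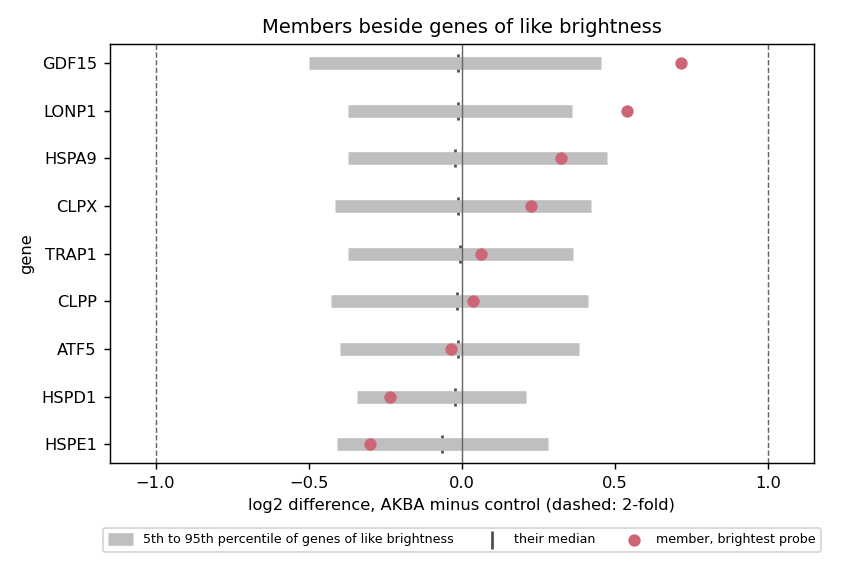
Log2 difference of the brightest probe of the 9 detected genes (points), beside the 5th to 95th percentile (grey bars) and the median (ticks) of genes within 0.5 of the same normalized log2 signal, with dashed lines at 2-fold. GDF15 and LONP1 lie beyond the bars and the other 7 genes within them.

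Of the 9 detected genes, 2 lay outside the range from the 5th to the 95th percentile of similarly bright genes. These were GDF15 and LONP1, both on the higher side. By definition, 5% of similarly bright genes lie beyond each end of this range, and the comparison was chosen after seeing the data. The order of the 9 genes by the difference of their brightest probes, from GDF15 and LONP1 down to HSPD1 and HSPE1, was the same in each of the 36 pairs under the 6 processings and the plain ratio. LONP1 exceeded HSPE1, for instance, by 0.84 on the log2 scale. All of these rework the same pair of arrays, and a shift common to all genes cancels between genes, so the agreement does not measure how reliable the order is. CLPP minus TRAP1 was only -0.03, beside a median span of 0.21 between probes of one gene. For HSPD1 and HSPE1 the place in this order rests on which probe is used. The second probe of HSPE1, at -0.08, lay above the brightest of HSPD1, at -0.23, and with median scaling and in the authors' processed values also above ATF5. The other detected probes of HSPD1, at 0.11 and 0.31, lay above TRAP1, at 0.06, and the one at 0.31 also above CLPX, at 0.22.

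Around these genes are the known partners of the chaperones. Of 14 co-chaperones and folding factors, 13 were detected, 10 of them above the median of detected genes and 3 below, with a list median of 0.03. HAX1, a partner of the mitochondrial disaggregase CLPB, was 1.47-fold higher, with 923 and 1056. GRPEL2, a nucleotide exchange factor of HSPA9, was 1.38-fold higher, with 1324 and 1427. At the other end were ATAD3A at -0.28 and PPIF, the cyclophilin D of the permeability pore, at -0.77. PPIF had 263 in the control and 152 with AKBA, close to the limit of detection, so the size of its difference is uncertain. It was the 1 gene of this list past 1.5-fold, a size that 4.36% of detected genes reached in the lower direction.

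Each of the 15 other mitochondrial proteases and peptidases detected lay below LONP1, as did 96.3% of all detected genes. Of these 15, 5 were above the median of detected genes and 10 below, and the list median was -0.12. The intermembrane space protease HTRA2 was 1.27-fold and IMMP2L, of the inner membrane peptidase, 1.18-fold higher, the latter at -0.06 with median scaling. MIPEP, a peptidase that trims imported proteins, stood at -0.39 and PITRM1, which degrades cleaved presequences, at -0.41. For the import machinery, 17 of 24 detected genes were above that median and 7 below, with a list median of 0.06. PAM16, a regulator of the HSPA9 import motor, was 1.38-fold and TIMM10 1.37-fold higher, while TIMM21 stood at -0.14 and the receptor TOMM20 at -0.30. Relative to detected genes, the medians of the co-chaperones, proteases and import genes kept their sign under the 6 processings, at 0.05 to 0.09, -0.13 to -0.08 and 0.08 to 0.11.

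The list of integrated stress response factors differed more. It holds both genes upstream of ATF4 and genes that ATF4 induces, such as TRIB3. Of 12 detected integrated stress response factors, 9 were above the median of detected genes and 3 below, with a list median of 0.36. TRIB3, a pseudokinase induced by ATF4, and CEBPB, a partner of ATF4, passed 2-fold, a size that 0.405% of detected genes reached on the higher side. TRIB3 had 1052 and 3203, and CEBPB 1985 and 4190. ATF4 had 10563 and 13068, or 1.41-fold, and DDIT3, the factor CHOP, had 407 and 577, or 1.90-fold, and this pair was chosen with its values in view. The lowest were EIF2S1, the subunit that the stress kinases phosphorylate, at -0.24, and the amino acid sensing kinase EIF2AK4 at -0.30. OMA1 and DELE1, which carry the signal of mitochondrial stress to the kinase HRI, stood at -0.12 and -0.11, and were likewise chosen with their values in view. Beside them, of the known ATF4 targets among the members, GDF15 stood at 0.72 and ATF5 at -0.04, while FGF21 was not detected.

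Of 6 detected mitochondrial enzymes that ATF4 is known to induce, 5 were above the median of detected genes and 1 below, with a list median of 0.58. By 1.5-fold or more, 3 of the 6 were higher, against 2.91% of detected genes, and 1 passed 2-fold. PCK2, which makes phosphoenolpyruvate in mitochondria, was 3.27-fold higher, with 590 and 1422, and the folate enzyme MTHFD2 1.63-fold, with 3106 and 4070. MTHFD1L stood at 0.17, or -0.14 with median scaling, and ALDH18A1, of proline synthesis, at -0.13. Relative to detected genes, the medians of the factors and enzymes were 0.33 to 0.40 and 0.58 to 0.65 under the 6 processings. The median of the factors was 0.23 in place of 0.38 when the probes of each gene were averaged, and that of the enzymes 0.35 in place of 0.61 without a filter on detection. These differences were known from earlier results of the same arrays and are no independent support.

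**Figure D4:**
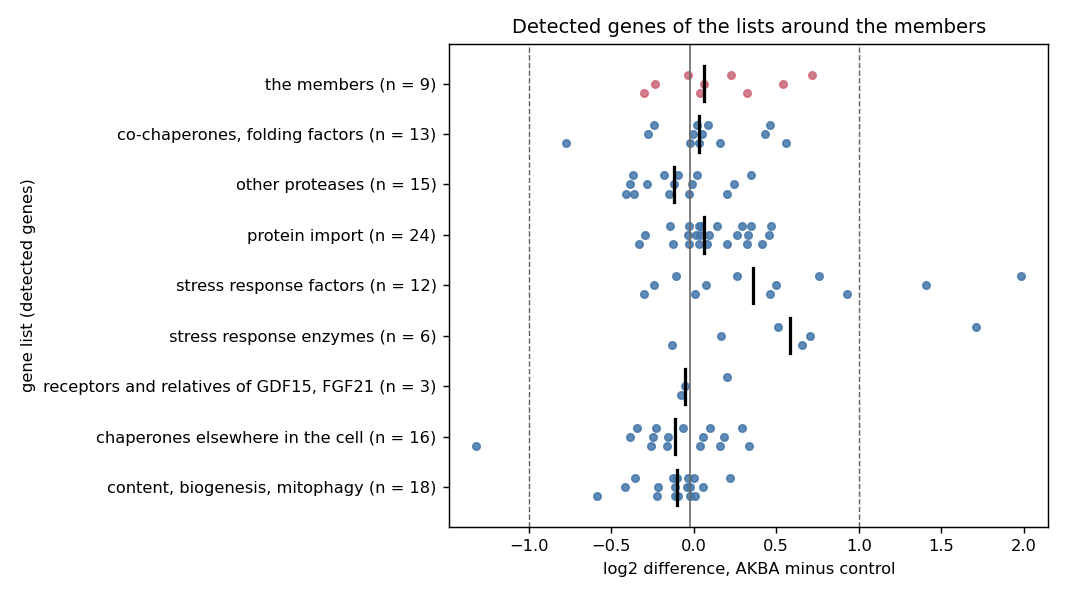
Log2 difference of each detected gene (points) of the 9 detected members and of 8 lists around them, with the median of each list (black bars), the median of all detected genes (grey line) and 2-fold (dashed lines). The factors and enzymes of the integrated stress response reach 1.98 and 1.71, whereas the members and the lists of mitochondrial chaperones, proteases, import and content stay within 2-fold.

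The chaperones of other compartments gave the counterpart to HSPD1, HSPA9 and TRAP1. Of 16 detected, 7 were above the median of detected genes and 9 below, with a list median of -0.11, and relative to detected genes the median lay between -0.09 and 0.03 and so had no settled sign. Of the cytosolic chaperonin, which is related to HSPD1, CCT8 was 1.26-fold and TCP1 1.22-fold higher, but at 0.06 and 0.005 with median scaling. Its other subunits on the list, named after their values were seen, went both ways. CCT6A stood at 0.18, CCT5 at 0.16, CCT4 at 0.06, CCT2 at 0.04, CCT7 at -0.16 and CCT3 at -0.25. HSP90B1, the endoplasmic relative of TRAP1, stood at -0.39, with 10472 and 6745. HSPA5, the endoplasmic relative of HSPA9, stood at -1.32, with 1390 and 476, the 1 gene of the list past 2-fold, against 0.347% of detected genes on the lower side. HSPA9 and HSPA5, members of one family in separate organelles, therefore lay on opposite sides of the median of detected genes under all 6 processings. The lower side was not particular to HSPA5 among the HSPA genes of the list, named after their values were seen. HSPA1B, at -0.35, lay below that median under all 6. HSPA8, at -0.23, lay below it in all but the authors' processed values, and HSPA1A was not detected.

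Genes of mitochondrial content, biogenesis and mitophagy were mostly on the lower side. Of 18 detected, 5 were above the median of detected genes and 13 below, and the list median was -0.10. By 1.5-fold or more, 0 of the 18 differed, against 7.27% of detected genes in either direction. The lowest, POLG2, a subunit of the mitochondrial DNA polymerase, stood just inside that limit at -0.58 and passed it with median scaling, at -0.84, and in the authors' processed values, at -0.79. It had 187 in the control and 127 with AKBA, where it was not detected, so the size is uncertain, and it was chosen with its values in view. The ribosomal RNA methyltransferase TFB1M was 1.17-fold higher and the superoxide dismutase SOD2 stood at 0.06, but with median scaling they were at -0.09 and -0.24. The coactivator PPRC1 stood at -0.36 and TWNK, the helicase of mitochondrial DNA, at -0.42. Of 14 receptors, partners and relatives of the cytokines on the array, 3 were detected, FGFR4 at 0.20 (-0.11 with median scaling), GDF11 at -0.05 and FGFR3 at -0.08. GFRAL, with 85.1 and 86.1, and KLB, the coreceptor of FGF21, with 89.4 and 74.6, were not detected and were named after their values were seen. In a bulk sample, fewer cells with a transcript and less of it per cell cannot be told apart.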

How the data were processed

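Per the labels' protocols, RNA was purified on columns and its amplified complementary RNA was labelled for Illumina arrays, with both biotin and Cy3 named. The deposited signal intensity per probe was neither background subtracted nor scaled, as the values show, and the deposited detection p-value has steps that correspond to 759 negative controls. The authors' processed intensity was a linear function of the signal of the same array, with slopes of 1.00 and 1.20 and intercepts of -74.7 and -86.5. Both processed columns had a mean of 352, with medians of 6.50 (control) and 7.63 (AKBA), and their direction is settled as larger for brighter. No source used here names the software.

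Signals were normalized with neqc of limma 3.58.1 in R 4.3.3 (normexp offset of 16, quantiles, log2). Python 3.11.15, numpy 2.4.6, pandas 2.3.3 and matplotlib 3.10.9 made the tables and figures. Of the probes, 28098 had 1 gene in the platform's annotation, 13 had several and 20692 had none; 28059 matched RefSeq of GRCh38.p14 by Entrez identifier. Each gene was taken by its brightest probe, and each probe of the members was read. No test was possible with 1 array per group. The procedure was tested on simulated data whose changes were larger than the difference of any member. Changes of the size seen for the members were not simulated. The aliases PIM1 and PDF are symbols of other genes on this array and were not used.

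The members and lists were chosen with earlier results of these data known. Named genes were all members, and of each list those past 2-fold and the 2 highest and 2 lowest detected on both arrays. The comparison with genes of like brightness and the plain ratio were chosen after seeing the data. The number of arrays limits the precision.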

Additional observations from a re-analysis of the deposited data

How the results depend on the processing

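No paired analysis was possible because each group has 1 array. No replicate could be left out for the same reason. The spread between probes of one gene, a median span of 0.21, was used to judge a move. Of 72 values of the 12 detected probes under alternatives, 20 moved by more than that, all with median scaling or the plain ratio. The median over the 9 detected members was -0.21 with median scaling and -0.24 by the plain ratio, because both shift all detected genes down. The number of members past 2-fold was 0 under every alternative except at 1.5-fold, where it was 1.

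The count of detected genes past 2-fold, 35 higher and 30 lower, depended on the processing. It was 20 and 4 with an offset of 50, 16 and 2 with no background correction, and 18 and 176 with median scaling. The lower count was 120 with the authors' processed values, 17 when a gene's probes were averaged, and 8 among genes detected on both arrays. At 1.5-fold 251 were higher and 377 lower. Of the list medians relative to detected genes, that of the mitochondrial stress response enzymes moved, to 0.35 without a filter on detection, and that of the stress response factors went from 0.38 to 0.23 when a gene's probes were averaged. Signals near the lowest detected signal give differences whose size depends on the background correction.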
